A study of Mus musculus with 6 samples.

Results

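The endothelial leukocyte adhesion molecules followed here are E-selectin (Sele), P-selectin (Selp), the P-selectin ligand PSGL-1 (Selplg), Vcam1, Icam1 and Icam2, in tumor endothelial cells (TECs) with and without activated Notch. They were taken by gene name from the expression table and make up 6 of its 23473 RefSeq rows, and all 6 had enough signal to be tested. None of the 6 differed between the NICeCA and Ctrl groups at an adjusted p under 0.05, against 13.6% of all tested rows. Icam2 had the largest difference of the 6, a mean of 17.8 ± 6.75 RPKM in Ctrl and 28.8 ± 4.65 RPKM in NICeCA (SD, n = 3 each), with an adjusted p of 0.096.

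Leukocytes leave the blood in steps. Selectins on the vessel wall bind sugar-bearing ligands such as PSGL-1 and let leukocytes roll, and ICAMs and VCAM-1 then bind leukocyte integrins and hold the cells firmly. P-selectin is kept ready in Weibel-Palade bodies, the storage granules of endothelial cells, whereas E-selectin, VCAM-1 and ICAM-1 are made upon stimulation by TNF or IL-1 through NF-kB. ICAM-2 is present on resting endothelium. PSGL-1 is known mainly from leukocytes, so Selplg stands for the partner rather than the vessel side of the rolling step. Blood vessels of tumors are often described as poor in such molecules, which bears on the entry of immune cells.

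Both groups were C57BL/6 mice of 8 weeks with Lewis lung carcinoma (LLC) tumors, a transplanted mouse lung cancer. NICeCA mice carried a Cdh5 cre ERT2 driver and a Rosa26 flox-stop-flox Notch1 ICD allele. Tamoxifen then releases the Notch1 intracellular domain in cells that express Cdh5, an endothelial cadherin, so that Notch signaling needs no ligand there. The labels give the Ctrl mice as wild type and do not say whether they carried the driver or received tamoxifen. TECs were captured with beads against CD31, which leukocytes and platelets also carry, and the labels state a purity over 90%. There were 3 libraries per group, and the methods speak of pairs of NICeCA and Ctrl mice without saying what a pair shared.

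Reads on RefSeq rows numbered 27793301 to 30769916 per library. Values are RPKM, reads scaled by gene length and by library total. A level is thus a share of its library and also depends on the other RNA in it. The calls changed with other scalings, as given further on. All 15 endothelial markers were detected, but their summed level was 265 to 680 RPKM in Ctrl and 566 to 740 RPKM in NICeCA, below that of 10 macrophage markers, at 3267 to 4469 RPKM in Ctrl and 2802 to 4804 RPKM in NICeCA. The summed level of the neutrophil markers was 139 to 301 RPKM in Ctrl and 627 to 1716 RPKM in NICeCA, with 8 of 9 tested markers higher. No marker of any list was at 0 in every library. Fewer cells of a type and less RNA per cell cannot be told apart in these samples. Hey1, a direct Notch target, was 3.67 ± 1.63 RPKM in Ctrl and 8.87 ± 2.47 RPKM in NICeCA (SD, n = 3 each; log2 fold change 1.10, adjusted p = 0.041 by limma), and this call held without Ctrl 1 but not without any of the other libraries (adjusted p from 0.075 to 0.158). It was also lost with quantile normalization (adjusted p = 0.052), with no filter on low values (0.133), with the replicate number as a block (0.077) and after scaling to the endothelial markers (log2 fold change 0.42, adjusted p = 0.511). By contrast, Notch1 itself was 12.1 ± 3.40 and 12.8 ± 0.671 RPKM (SD, n = 3 each).

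The promoters of Sele, Selp and Icam1 are shown because the sequences used here held only these 3 of the 6 members. Each is the 250 bases before the gene start in RefSeq, build GRCm38.p6, on the plus strand, read 5′ to 3′. Capitals mark matches to GGNNNTTCC, a simple form of the NF-kB site, on either strand. Sele lies at chr1:164047984-164048233, Selp at chr1:164115014-164115263 and Icam1 at chr9:21015690-21015939.
Sele: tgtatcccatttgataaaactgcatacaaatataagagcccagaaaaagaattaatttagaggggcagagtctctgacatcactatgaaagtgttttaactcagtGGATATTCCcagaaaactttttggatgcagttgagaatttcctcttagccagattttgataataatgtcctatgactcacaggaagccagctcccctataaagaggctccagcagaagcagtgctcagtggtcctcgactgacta
Selp: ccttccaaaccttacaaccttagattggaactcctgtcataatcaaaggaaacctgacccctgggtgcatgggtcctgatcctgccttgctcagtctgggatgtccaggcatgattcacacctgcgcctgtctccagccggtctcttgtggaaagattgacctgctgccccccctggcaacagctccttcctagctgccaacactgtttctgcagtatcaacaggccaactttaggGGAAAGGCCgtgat
Icam1: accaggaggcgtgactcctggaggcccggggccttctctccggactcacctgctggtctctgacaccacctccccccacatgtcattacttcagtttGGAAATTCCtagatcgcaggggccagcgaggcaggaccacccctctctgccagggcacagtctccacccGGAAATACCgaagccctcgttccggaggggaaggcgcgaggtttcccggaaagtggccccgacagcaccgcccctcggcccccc

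Each of the 3 windows held at least 1 match to GGNNNTTCC, and 15.7% of 32841 promoter windows of this length did. Counted back from the RefSeq gene start that ends each window, the Sele match spanned positions -145 to -137. Icam1 had a match at -153 to -145 that reads on both strands and another at -84 to -76. The Icam1 window ends at 21015939, whereas the Icam1 row of the deposited data starts later, at 21015960. The Selp match stood at -14 to -6 on the minus strand. TGANTCA, the AP-1 motif, was found in Sele and Selp and in 6.8% of windows. TGGGAA, the core that the Notch partner RBPJ binds, was found in Sele alone of the 3, on the minus strand at -140 to -135 where it overlaps the GGNNNTTCC match, and in 21.6% of windows. TATAAA was found in Sele at -49 to -44 and in 12.4% of windows. A match is a string of letters and not a shown binding site.

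The selectins were the least abundant of the 6. Sele, which slows rolling leukocytes on inflamed vessels, lies at chr1:164048234-164057677 on the plus strand (gene positions here are those of the deposited table, which match build GRCm38). Its level was 2.31, 1.52 and 1.75 RPKM in Ctrl replicates 1 to 3 and 1.77, 4.70 and 2.87 RPKM in NICeCA replicates 1 to 3. NICeCA 2 and 3 stood above every Ctrl library, but NICeCA 1 lay within the Ctrl range. The log2 fold change of NICeCA against Ctrl, on the log2(RPKM + 1) scale used throughout, was 0.47 (SE 0.26, 95% interval -0.12 to 1.06, adjusted p = 0.224 by limma), and the exact permutation test over libraries gave a two-sided p of 0.2. At so low a level the added 1 shrinks the difference. With a pseudocount of 0.1 the log2 fold change of Sele was 0.63 (adjusted p = 0.227 by limma). The Sele values rest on 176 to 483 reads per library.

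Selp, the selectin of Weibel-Palade bodies and platelets, lies close to Sele at chr1:164115264-164150026, also on the plus strand. Its level was 5.38, 2.75 and 5.88 RPKM in Ctrl and 4.76, 7.85 and 5.96 RPKM in NICeCA. The highest library was NICeCA 2 and the lowest Ctrl 2, and the groups overlapped. Its log2 fold change was 0.37 (SE 0.26, 95% interval -0.22 to 0.96, adjusted p = 0.331, exact permutation p = 0.4). The end of Selp overlaps the row of Gm16548 on the other strand over 1451 bases. Gm16548 had 1.17 to 4.48 RPKM in Ctrl and 4.54 to 7.33 RPKM in NICeCA. No source used here says whether strand was used in counting, and reads of the overlapping part may have gone to either row.

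Selplg, the ligand that the selectins bind on leukocytes, lies at chr5:113817798-113830501 on the minus strand and was the most abundant member. It measured 42.6, 31.6 and 49.6 RPKM in Ctrl and 51.1, 48.3 and 48.8 RPKM in NICeCA. The NICeCA libraries were close together, with an SD of 1.49 RPKM against 9.09 RPKM in Ctrl, where Ctrl 1 and 2 stood below every NICeCA library and Ctrl 3 did not. NICeCA against Ctrl gave a log2 fold change of 0.28 (SE 0.17, 95% interval -0.12 to 0.67, adjusted p = 0.278, exact permutation p = 0.3). The 8 pan-leukocyte markers, among them Ptprc and Coro1a, had a mean log2(RPKM + 1) of 5.81, 5.46 and 6.17 in Ctrl and 6.37, 6.29 and 6.11 in NICeCA. Like Selplg, this mean was lowest in Ctrl 2, next lowest in Ctrl 1 and highest in NICeCA 1. The libraries between had another order, rising from NICeCA 2 to NICeCA 3 to Ctrl 3 in Selplg. In the marker mean they rose from NICeCA 3 to Ctrl 3 to NICeCA 2. The part of leukocytes in the Selplg values was not tested.

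Vcam1, the ligand of the integrin VLA-4, was the only member with a negative log2 fold change. It lies at chr3:116110020-116129688 on the minus strand and measured 31.3, 19.8 and 30.2 RPKM in Ctrl and 32.6, 25.5 and 19.3 RPKM in NICeCA. The highest and the lowest library were both NICeCA, so that the NICeCA group covered the whole Ctrl range. The log2 fold change was -0.07 (SE 0.23, 95% interval -0.61 to 0.47, adjusted p = 0.852, exact permutation p = 0.9), and it was 0.01 after trimmed mean scaling of the libraries. In folds of RPKM + 1 the interval runs from 0.655 to 1.38, which holds for RPKM as deposited. After scaling to the endothelial markers, described further on, the log2 fold change was -0.75 (SE 0.51), below the interval given above. The mean log2(RPKM + 1) of the macrophage markers was 7.60, 7.18 and 7.43 in Ctrl and 8.08, 7.64 and 7.18 in NICeCA. As with Vcam1, NICeCA 1 was highest and Ctrl 2 and NICeCA 3 were lowest. The libraries between had another order, with NICeCA 2 below Ctrl 1 and Ctrl 3 in Vcam1 but above both in the marker mean. The part of macrophages in the Vcam1 values was not tested.

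Icam1, the inducible ligand of the integrins LFA-1 and Mac-1, lies at chr9:21015960-21028796 on the plus strand. Its level was 36.2, 30.8 and 46.1 RPKM in Ctrl and 35.9, 50.3 and 38.7 RPKM in NICeCA. Only NICeCA 2 stood above every Ctrl library. Between the groups, the log2 fold change was 0.14 (SE 0.19, 95% interval -0.29 to 0.58, adjusted p = 0.609, exact permutation p = 0.6), and it was -0.04 after quantile normalization.

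Icam2, the LFA-1 ligand of resting endothelium, lies at chr11:106377656-106382641 on the minus strand. It measured 25.0, 11.6 and 16.8 RPKM in Ctrl and 23.4, 31.3 and 31.6 RPKM in NICeCA. NICeCA 2 and 3 were above every Ctrl library, while NICeCA 1 was below Ctrl 1. The log2 fold change was 0.71 (SE 0.26, 95% interval 0.12 to 1.30), or 1.64-fold on RPKM + 1 (1.08 to 2.47). Icam2 was the only member with an unadjusted p under 0.05 (p = 0.025 by limma), as were 35.5% of all tested rows, and its exact permutation p was 0.2. Without Ctrl 1, the Ctrl library with the most Icam2, the log2 fold change was 0.97 and the adjusted p 0.044. Without Ctrl 2, the lowest library, it was 0.45.

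**Figure D1:**
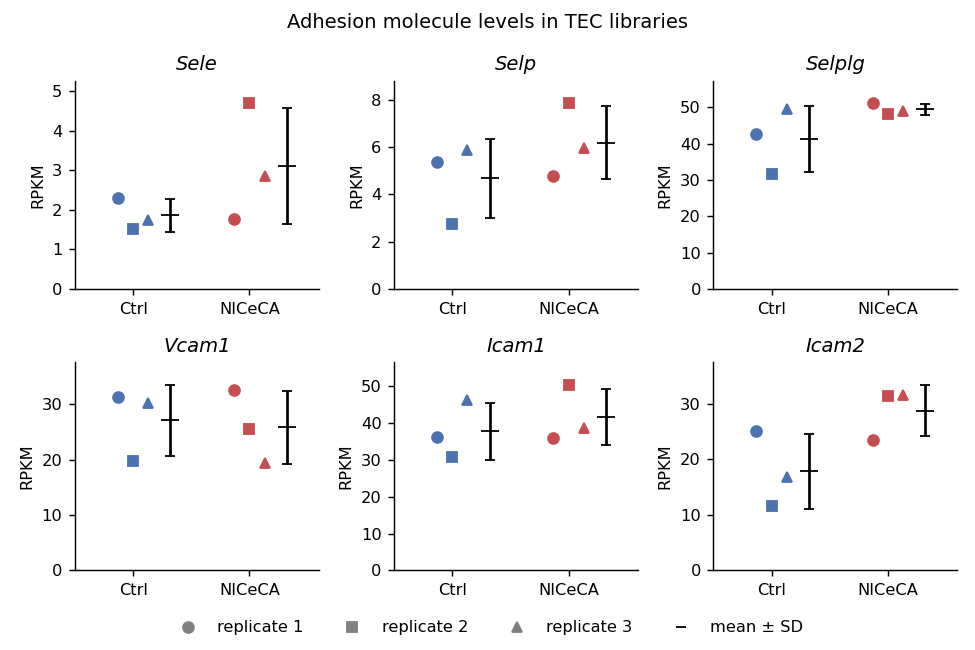
RPKM (y axis, from 0) of the 6 adhesion molecules in the 3 Ctrl and 3 NICeCA libraries, with 1 symbol per library by replicate number and the group mean ± SD beside it in black. The groups overlap in every panel, and the square of Ctrl 2 is the lowest point in all panels but that of Vcam1.

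Across the members, 0 of 6 had groups that did not overlap, against 40.9% of the tested rows. The log2 fold change was positive for 5 of 6 members and its median was 0.32, while over all tested rows it was positive for 44.7% and the median was -0.05. Ctrl 2 was the lowest library for 5 of the 6 and NICeCA 2 the highest for Sele, Selp and Icam1. Ctrl 2 also had the largest share of RefSeq reads on the ribosomal RNA precursor Rn45s, 6.4%, against 3.86% in Ctrl 1, 1.87% in Ctrl 3 and 0.82 to 1.92% in NICeCA. The part of residual ribosomal RNA in these values was not tested. Without Ctrl 2 the log2 fold changes were 0.38 for Sele, 0.10 for Selp, 0.10 for Selplg, -0.28 for Vcam1 and 0.01 for Icam1. The exact permutation test has 20 ways to assign the libraries, and its smallest two-sided p is 0.1, so it could not pass the threshold for any gene.

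The members were therefore set against the endothelial markers of the same library. The mean log2(RPKM + 1) of the 15 markers was 5.11, 3.84 and 4.17 in Ctrl and 4.80, 5.23 and 5.14 in NICeCA, so Ctrl 2 and 3 were below all other libraries. Icam2 stayed close to this mean in every library. Icam2 minus the mean was -0.20 ± 0.20 in Ctrl and -0.17 ± 0.06 in NICeCA (SD, n = 3 each), a difference of 0.03 (exact permutation p = 0.9). Relative to the same mean, the other 5 differed by -0.21 for Sele, -0.31 for Selp, -0.41 for Selplg, -0.54 for Icam1 and -0.75 for Vcam1, with exact permutation p from 0.2 to 0.6. Such scaling shifts every row by the same -0.683, the difference in marker mean between the groups. Before it, the log2 fold changes of Sele, Selp, Selplg and Icam1 were positive. Whether cell makeup or expression moved the marker mean was not tested. The median of all tested rows moves to -0.73. Set against the median of all rows, which gives the same values with and without the scaling, Vcam1 was at -0.02, Icam1 at 0.19, Selplg at 0.33, Selp at 0.42, Sele at 0.52 and Icam2 at 0.76. No member was called after the scaling. The SE of the members was then 0.50 to 0.51, against 0.17 to 0.26 without it. The scaled fit could thus call only large differences, and the lack of calls says little about smaller ones.

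**Figure D2:**
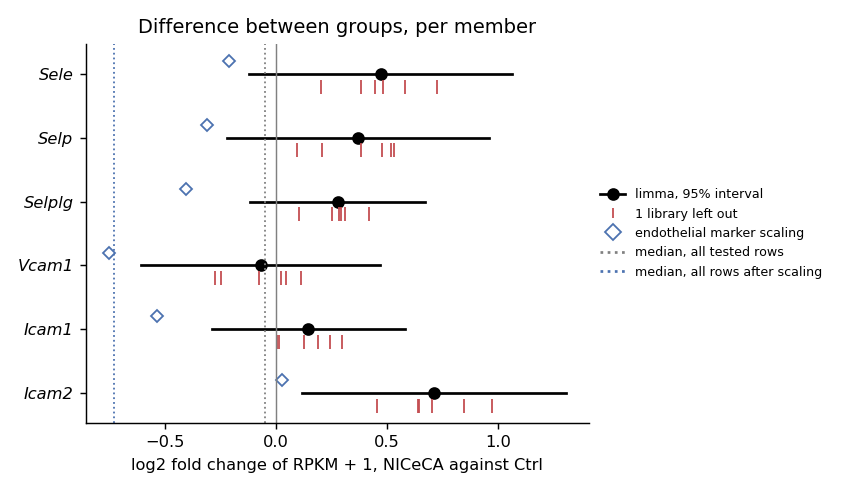
Log2 fold change of RPKM + 1 (x axis) for each member, with the limma estimate and its 95% interval in black, the estimates with 1 library left out as red ticks and the estimate after scaling to the endothelial markers as open diamonds, drawn without their wider intervals. Only the interval of Icam2, from 0.12 to 1.30, leaves out 0, and the diamond of Icam2 lies at 0.03.

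**Figure D3:**
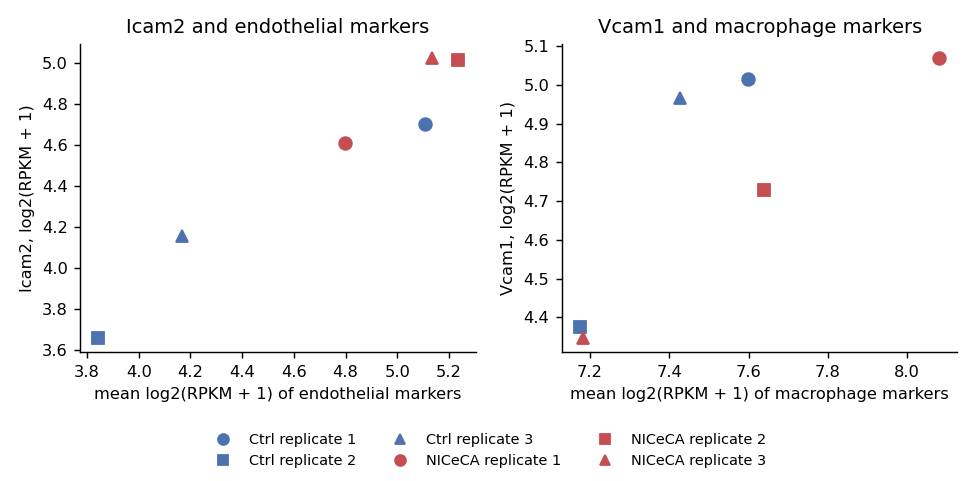
Icam2 against the mean of 15 endothelial markers (left) and Vcam1 against the mean of 10 macrophage markers (right), all as log2(RPKM + 1), with 1 symbol per library. On the left, Ctrl 2 and 3 are low on both axes, and on the right Ctrl 2 and NICeCA 3 are lowest and NICeCA 1 highest on both.

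By level, the order over the 6 libraries was Selplg, Icam1, Vcam1, Icam2, Selp and Sele. Neighbors in the order were compared within libraries by an exact two-sided sign-flip test, adjusted over the 5 pairs. Icam1 was higher than Vcam1 in 6 of 6 libraries by a mean ratio of 1.51, Icam2 higher than Selp in 6 of 6 by 4.24, and Selp higher than Sele in 6 of 6 by 2.26. In this exact test each of these had p = 0.031, the smallest that 6 libraries can give, and an adjusted p of 0.052. In the same test, Selplg and Icam1 had a ratio of 1.14 (5 of 6 libraries, adjusted p = 0.117). Vcam1 and Icam2 had one of 1.18 (4 of 6 libraries, adjusted p = 0.344). No pair passed an adjusted p of 0.05.

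For each member, the other tested rows were ranked by how closely they followed it over the 6 libraries (Pearson r of log2(RPKM + 1), a description of 6 points in 2 groups that share their libraries' depth and cell makeup). Icam2 was followed by 2210408F21Rik (r = 0.999), Podxl, a sialomucin of the endothelial surface (r = 0.993), and Prss23 (r = 0.990). Rows that followed Vcam1 included Hsd3b7 (r = 0.990) and Rmnd5a (r = 0.985), and Selplg was followed by Epc2 (r = 0.997), Dgat1 (r = 0.994) and Syk, a tyrosine kinase of immune cells (r = 0.994). The closest rows to Sele were BC026585, Rassf9 and Dhh (r from 0.960 to 0.971). For Selp they were Lcorl, H2-Q8 and 5430427O19Rik (r from 0.982 to 0.987), and for Icam1 Ankrd32, Zfp386 and Chordc1 (r from 0.980 to 0.988). Rows with r over 0.9 numbered from 35 for Sele to 413 for Selplg, so closeness of this kind was common.

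Other genes of leukocyte adhesion were then counted in 7 lists with 90 tested genes. NICeCA was higher for 11 of the 90, or 12.2%, and lower for 2, or 2.22%, against 5.88% and 7.68% of all tested rows. The lists were chosen with earlier results of these data known, so this contrast with all rows is only a description. None of the 6 members is in these lists. These calls depended on single libraries. The number of list genes called higher, 11 with all libraries, was 7 without Ctrl 2, 17 without Ctrl 3, 3 without NICeCA 1 and 1 without NICeCA 2, where Mmp9, a matrix protease, alone was left. The number called lower, 2 with all libraries, was 1 without Ctrl 1 or Ctrl 2 and 0 without NICeCA 1 or NICeCA 2. After scaling to the endothelial markers, 2 were higher, Il1a and Mmp9, and Rhbdf1 was lower. With no filter on low values, 0 were called by limma. With the replicate number as a block, 7 were higher and 1 lower, and Itgam, Itgb7, Gcnt1, Cd9, Vwf and Rhbdf1 were not called.

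The list of other endothelial genes of leukocyte traffic, which includes junction and surface molecules, had 0 of 17 tested genes called and a median log2 fold change of 0.59. Its most abundant gene was Pecam1, which encodes CD31, at 135, 47.5 and 82.6 RPKM in Ctrl and 125, 154 and 142 RPKM in NICeCA (log2 fold change 0.78, adjusted p = 0.135). Cdh5, the cadherin of endothelial junctions, had a log2 fold change of 0.66 (adjusted p = 0.20). In 3 of the 17, Emcn, Alcam and Aoc3, every NICeCA library was above every Ctrl library, as in 16.5% of all tested rows. Pecam1, Cdh5, Emcn, Esam and Cd34 are also among the endothelial markers, whose mean is given above, so the list and the markers are not separate evidence. Without Ctrl 1, 6 of the list were called higher, and without Ctrl 3, 2 were.

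Of the leukocyte counter-receptors, 2 of 11 tested genes were higher in NICeCA and 0 lower. Itgam, the alpha chain of Mac-1 that binds ICAM-1, went from 90.5 to 140 RPKM over the Ctrl libraries to 161 to 238 RPKM over the NICeCA libraries (log2 fold change 0.77, adjusted p = 0.048). Itgb7, which pairs with the VCAM-1-binding alpha-4 chain, was 30.2 to 41.9 RPKM in Ctrl and 55.5 to 57.7 RPKM in NICeCA (log2 fold change 0.63, adjusted p = 0.036). The other partners of ICAMs and VCAM-1 were not called: Itgal had a log2 fold change of -0.59, Itgb2 of 0.11, Itga4 of -0.47 and Itgb1 of 0.29. The leukocyte marker Ptprc had a log2 fold change of 0.25 (adjusted p = 0.60).

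Among the enzymes that build selectin ligands, 1 of 10 tested genes was called. Gcnt1, which makes the branched O-glycan on which PSGL-1 carries its selectin-binding sugar, rose from 5.28 to 8.75 RPKM over the Ctrl libraries to 10.3 to 16.2 RPKM over the NICeCA libraries (log2 fold change 0.85, adjusted p = 0.041). Fut7, the fucosyltransferase of the same sugar, was near 1 RPKM with a log2 fold change of -0.05 (adjusted p = 0.892). Tpst2, which sulfates tyrosines of PSGL-1, was the most abundant of the list and had a log2 fold change of 0.31 (adjusted p = 0.221).

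In the TNF, IL-1 and NF-kB pathway that induces Sele, Vcam1 and Icam1, 4 of 19 tested genes were higher in NICeCA and 0 lower. The cytokine Il1b was 170 to 386 RPKM in Ctrl and 718 to 930 RPKM in NICeCA (log2 fold change 1.70, adjusted p = 0.020). Tnf was 13.6 to 20.8 RPKM in Ctrl and 47.6 to 91.1 RPKM in NICeCA (log2 fold change 1.96, adjusted p = 0.011). Il1a had a log2 fold change of 2.85 (adjusted p = 0.012). Nfkbia, the NF-kB inhibitor that NF-kB itself induces, had one of 1.04 (adjusted p = 0.020). The receptors, adaptors and NF-kB subunits of the list were not called. Il1a, Il1b and Nfkbia overlap the rows of Gm14023, Gm14047 and Mir1198 on the other strand. Neutrophils and macrophages are known sources of these cytokines, and the neutrophil marker mean was 2.61 to 3.35 in Ctrl and 4.27 to 4.93 in NICeCA on the log2(RPKM + 1) scale. Its part in these values was not tested.

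Of the Weibel-Palade body genes, 2 of 13 tested were higher and 1 lower. Vwf, the main cargo stored beside P-selectin, was 13.0, 6.31 and 13.5 RPKM in Ctrl and 22.3, 28.3 and 22.9 RPKM in NICeCA (log2 fold change 1.15, adjusted p = 0.036). Angpt2, a vessel-destabilizing ligand stored in the same granule, had a log2 fold change of 1.20 (adjusted p = 0.032). Its row overlaps that of Mcph1 on the other strand. Rab3d, a small GTPase of granules, fell by 0.79 on the log2 scale (adjusted p = 0.026). Cd63, a granule membrane protein also found in lysosomes of many cells, was the most abundant and had a log2 fold change of 0.01. Platelets also hold Vwf and Selp. Of the 10 platelet markers, the chemokine genes Pf4 and Ppbp were called higher. The other 8 had a summed level of 6.44 to 6.86 RPKM in Ctrl and 4.64 to 8.65 RPKM in NICeCA, and the 2 of them that were tested, Itga2b (log2 fold change 0.26) and Gp1bb (-0.26), were not called. The summed level of the whole list, nearly all of it Pf4 and Ppbp, was 117 to 200 RPKM in Ctrl and 1178 to 1310 RPKM in NICeCA. The highest single value among the other 8 was 2.575 RPKM. The part of platelets in the Vwf and Selp values was not tested.

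Among the proteins that anchor ICAMs and VCAM-1 to the cytoskeleton or cluster them, 1 of 13 tested genes was called and the median log2 fold change was -0.04. It was Cd9, a tetraspanin, at 52.6 to 76.0 RPKM in Ctrl and 90.3 to 114 RPKM in NICeCA (log2 fold change 0.76, adjusted p = 0.036). Flna, an actin cross-linker and the most abundant gene of the list, had a log2 fold change of -0.18 (adjusted p = 0.476). Of the proteases and regulators that can shed adhesion molecules, Mmp9 was 3.90 to 9.87 RPKM in Ctrl and 35.6 to 83.6 RPKM in NICeCA (log2 fold change 3.10, adjusted p = 0.011). Rhbdf1, which controls the sheddase ADAM17, fell by 1.27 (adjusted p = 0.037), and Adam17 and Adam10 were not called among the 7 tested. Mmp9 is also a neutrophil product, and the neutrophil marker mean was likewise higher in NICeCA. Within NICeCA the order differed, with Mmp9 at 76.5, 35.6 and 83.6 RPKM and the neutrophil marker mean at 4.27, 4.44 and 4.93, and the part of neutrophils in the Mmp9 values was not tested.

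**Figure D4:**
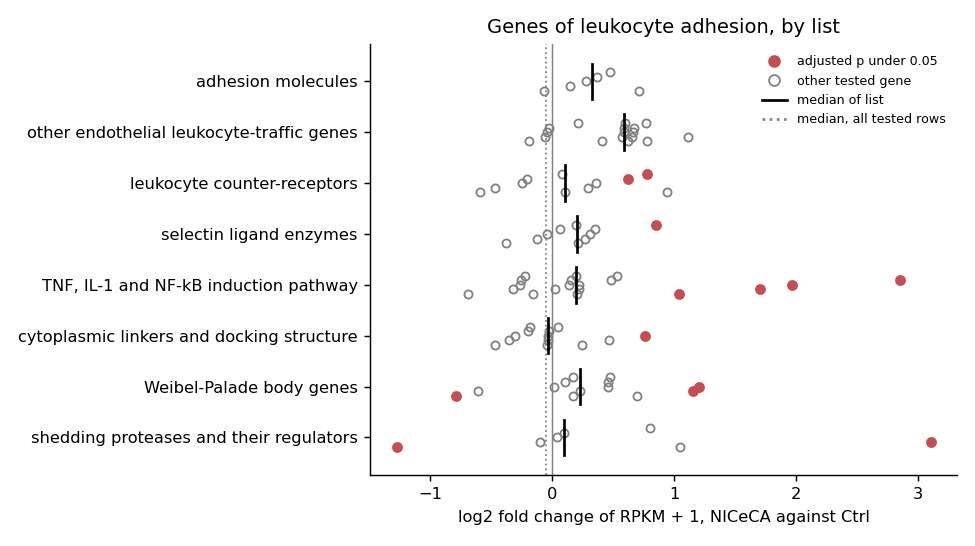
Log2 fold change of RPKM + 1 (x axis) of each tested gene in the adhesion molecules and the 7 lists, filled red where the adjusted p was under 0.05, with the list median as a black bar and the median of all tested rows as a dotted line at -0.05. No adhesion molecule is red, and the 13 red points include Mmp9 at 3.10 and Il1a at 2.85.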

How the data were processed

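Bulk RNA of TECs from 3 Ctrl and 3 NICeCA mice was depleted of ribosomal RNA and sequenced in pairs. The authors deposited RPKM per library for 56826 rows, 23473 with RefSeq names and 33353 FANTOM3 models, without pooling. The submitters' processing notes name TopHat2 and mm9, but 99.3% of the 21662 RefSeq symbols found in GRCm38.p6 overlap their gene there. The sources used here do not name the counting tool. Multiplying RPKM by length and total gave whole reads, within 0.05, for 100.0% of values under 1000 reads, which set the depth per library.

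From the deposited RPKM, log2(RPKM + 1) of RefSeq rows with a mean of at least 1 RPKM (12320 rows) was compared by limma (version 3.58.1, R 4.3.3, eBayes with a mean-variance trend, two-sided, Benjamini-Hochberg over all tested rows, adjusted p under 0.05). Single values were also compared by exact permutation. The methods give pairs of mice and a single day of collection, while the labels give differing days and no day per sample. Groups came from sample titles. The study names OmicShare tools, which were not run.

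The members, the 7 gene lists and the 11 marker lists were chosen with earlier results of these data known. All list genes matched a row, Ackr1 as Darc, and Adgre1 of the markers as Emr1. Ly6g was not used. Named genes are the members, 12 chosen partners, and from each list the called genes (at most 6) and the most abundant gene (of marker lists, the most abundant). The 3 rows closest to each member and the check genes Notch1 and Hey1 were also named. Of these, 2 genes are not reported here. Other genes were named after their values were seen, among them Emcn, Alcam, Aoc3, Esam, Cd34, Adam10, Adam17 and Ppbp. Promoters of 3 of the 6 members were read from RefSeq sequences of GRCm38.p6, and Selplg, Vcam1 and Icam2 are named without one. Alternatives were the replicate number as a block, each library left out, quantile, trimmed mean and endothelial marker scaling, no filter or at least 5 RPKM, a pseudocount of 0.1, no trend, voom on recovered reads and all rows.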

Additional observations from a re-analysis of the deposited data

Results flagged for a closer look

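The FANTOM3 rows were outside the comparison of RefSeq rows. One of them, C730034B22, lies on the strand opposite to Selp and overlaps its end over 1435 bases. It had 1.01 to 3.08 RPKM in Ctrl and 3.47 to 4.46 RPKM in NICeCA, so every NICeCA library was above every Ctrl library. In the fit of all rows its log2 fold change was 0.74 (adjusted p = 0.072 by limma), which did not pass the threshold. It covers much of the same stretch as Gm16548. Groups of 3 libraries were not searched for single outlying samples.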

How the results depend on the processing

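Of 16 alternatives, 1 called a member: Icam2 without Ctrl replicate 1 (0.97, adjusted p = 0.044), which took the number of members called from 0 to 1 over the leave-one-out fits. The log2 fold change over the leave-one-out fits ran from 0.20 to 0.72 for Sele, 0.10 to 0.53 for Selp, 0.10 to 0.42 for Selplg, -0.28 to 0.11 for Vcam1, 0.003 to 0.30 for Icam1 and 0.45 to 0.97 for Icam2. Vcam1 turned positive without Ctrl replicate 1 (0.04), Ctrl replicate 3 (0.02) and NICeCA replicate 3 (0.11), and after trimmed mean scaling (0.0052). Icam1 turned negative with quantile normalization (-0.038). Endothelial marker scaling turned Sele (-0.21), Selp (-0.31), Selplg (-0.41) and Icam1 (-0.54) negative. It moved the median of all rows by -0.683. Sele was not tested at a mean of at least 5 RPKM.

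Over all rows, 725 were called higher and 946 lower (43.4% higher). Leaving out 1 library gave 17 to 911 higher and 1 to 832 lower, and 1 to 17 list genes higher and 0 to 3 lower. The fewest were called without NICeCA replicate 2. The counts were 446 higher and 325 lower with quantile normalization (57.8% higher), 1058 and 683 with trimmed mean scaling (60.8%), 30 and 276 with endothelial marker scaling (9.8%), 42 and 9 with no filter (82.4%), 629 and 579 at a mean of at least 5 RPKM and 1026 and 2185 with all rows (32%). List genes called higher, 11 of 90 in the reported fit, were 6 with quantile normalization, 2 with endothelial marker scaling and 0 with no filter, and those called lower, 2, were 1 with endothelial marker scaling and 0 with no filter. The cause of these shifts was not tested.

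Same-numbered samples had deviations that correlated at 0.122, -0.343 and -0.178, and no source says which samples form the pairs of mice in the methods, so the numbers were not taken as pairs. With the replicate block, 327 rows were higher and 209 lower (61% higher), 7 list genes were higher and 1 lower, and 0 members were called. The calls of Itgam (adjusted p = 0.086), Itgb7 (0.076), Gcnt1 (0.080), Cd9 (0.058), Vwf (0.059), Rhbdf1 (0.058) and Hey1 (0.077) were lost under it. Of the 3 Ctrl and 3 NICeCA samples, only NICeCA 1 was closest to its own number (0.122). The highest correlation was between Ctrl 2 and NICeCA 3 (0.438). Depth limits Sele most, with 176 reads in its lowest library.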

Other observations

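Markers of other cells in the CD31 capture were counted in the same limma fit. NICeCA was higher for 1 of 15 tested endothelial markers (Flt1), 1 of 6 lymphatic and venous markers (Pdpn), 1 of 8 pan-leukocyte markers (Cd53), 3 of 10 macrophage markers (Cd68, Cd14 and Fcgr1), 2 of 4 tested platelet markers (Pf4 and Ppbp) and 3 of 7 pericyte and smooth muscle markers (Rgs5, Tagln and Kcnj8). Of the 10 macrophage markers, only 4 had a positive log2 fold change. The median of that list was -0.15, and its mean level overlapped between the groups. Of 7 fibroblast markers, Postn was higher, and Col3a1, Pdgfra and Lum were lower. Of 2 tested epithelial markers, Krt18 was lower. No marker of T and NK cells (9 tested) or B cells (3 tested) was called, with groups that overlapped in their summed levels.

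The most abundant marker was Pecam1 for endothelium and Coro1a for leukocytes as a whole. For macrophages it was Cd14, at 451 to 687 RPKM in Ctrl and 1083 to 1240 RPKM in NICeCA (log2 fold change 0.97, adjusted p = 0.026). S100a9 led the neutrophil list, at 34.4 to 118 RPKM in Ctrl and 194 to 742 RPKM in NICeCA (log2 fold change 2.21, adjusted p = 0.045). Pf4, a chemokine gene, led the platelet list, at 102 to 172 RPKM in Ctrl and 889 to 1126 RPKM in NICeCA (log2 fold change 2.98, adjusted p = 0.007). The 8 platelet markers other than Pf4 and Ppbp had a summed level of 6.44 to 6.86 RPKM in Ctrl and 4.64 to 8.65 RPKM in NICeCA. Their highest single value was 2.575 RPKM, so all 8 were low. Pdpn, Rgs5 and Col3a1 led the lymphatic and venous, pericyte and fibroblast lists, with log2 fold changes of 1.78, 1.40 and -1.13. Cd2, Cd79b and Cdh1 led the T and NK, B cell and epithelial lists and were not called.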
